A study of Mus musculus with 15 samples.

Results

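Transcript levels of p53, its regulators and its target genes were followed across mouse embryonic germ cells (EGC, pluripotent lines grown out from primordial germ cells) and embryonic stem cells (ESC, pluripotent lines of the early embryo). The members are 35 genes chosen by symbol, of 34372 genes in the deposited table. A row was found for 34 of them under the given symbol, and Pidd1 was found under its older symbol Lrdd. They were sorted by known role into 5 genes of p53 and its regulators, 8 of cell cycle arrest, 14 of apoptosis, 5 of DNA repair and nucleotide supply, and 3 of metabolism.

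The header of the table gives 6 labels over 15 libraries: E11.5 XX EGC with 2 libraries, E12.5 XY EGC with 3, E11.5 XY EGC with 3 and E11.5 XO EGC with 1, then XX ESC and XY ESC with 3 each. XX, XY and XO name the sex chromosomes of a line, and E11.5 and E12.5 the day of gestation named in the header. Per the labels, all lines were at passage 6, were grown on embryonic fibroblast feeders in serum with LIF after outgrowth in 2i-LIF medium, and were sorted for the surface antigen SSEA1 before polyadenylated RNA was extracted. No allele, transgene or drug treatment is named for any group, and no applied stress. The labels do not say whether libraries under 1 label are separate lines, separate cultures or clones of 1 line, so label and line cannot be told apart, and each p-value measures the spread between these libraries, which may be technical. The XO label has 1 library and entered no comparison by label, but is among the 9 libraries of EGC set against the 6 of ESC.

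The protein p53 is a transcription factor that cells stabilise after DNA damage and other stress. It binds paired copies of a 10-base half-site and switches on genes that halt the cell cycle (Cdkn1a), start apoptosis (Bax, Bbc3, Pmaip1, Fas) or repair DNA (Ddb2, Xpc). One of its targets, Mdm2, encodes the ubiquitin ligase that marks p53 for degradation, and the related Mdm4 holds back its activity, so that the pathway limits itself. Mouse pluripotent cells are known for abundant p53 even without applied damage.

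Values are in TPM, the share of a gene among all transcripts after correction for gene length, scaled to the same total in each library; the read depth behind them is unknown. Between 12498 and 13041 genes reached 1 TPM in a library, and all 10 of 10 pluripotency markers did so in every library. Summed fibroblast markers (16 genes) reached 41.0 to 43.0 TPM in E11.5 XX EGC, 31.4 to 38.7 in E12.5 XY EGC, 38.9 to 91.0 in E11.5 XY EGC, 38.7 in XO, 17.7 to 22.3 in XX ESC and 22.2 to 26.5 in XY ESC. The highest of these sums was that of E11.5 XY EGC library 1. XX ESC library 3 stood apart on chromosome 13, where the median of 501 genes was 0.49 log2 units above the other XX ESC libraries; Plk2 and Polk lie on that chromosome. E11.5 XY EGC library 1 stood 0.13 above the other E11.5 XY EGC libraries on chromosome 8 (707 genes), where Gdf15 lies. The call on Gdf15 at E12.5 against E11.5 (-0.49) was lost without that library (adjusted p = 0.0724 by limma). It was also lost without E12.5 XY EGC library 1 (0.0787). In these bulk libraries, fewer cells of a type and less RNA per cell cannot be told apart.

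Sequences before the starts of the genes are shown first, to set the p53 half-sites of known targets beside the promoters of the 2 arrest genes that changed most in E11.5 XX against E11.5 XY EGC. RefSeq windows (GRCm38.p6, 250 bases before a start to 50 after it) were available for 27 of the 35 members, in 41 windows. An exact p53 half-site, searched by its consensus on both strands, lay in 13 of these windows (31.7%) and in 8.36% of all 32851 windows. Paired half-sites, at most 13 bases apart and with at most 2 mismatches in all, were found in 5 of the 41 windows (12.2%), those of Cdkn1a, Bax, Sesn1, Rps27l and Gtse1, and in 2.12% of all windows. Capitals mark the half-sites in the lines that follow, each written 5′ to 3′ along the strand of the gene.

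Cdkn1a, chr17:29090906-29090937, plus strand: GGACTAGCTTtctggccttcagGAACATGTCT
Bax, chr7:45467090-45467114, minus strand: TGACAAGCATatcccAGGCAAGCTT
Sesn1, chr10:41887253-41887275, plus strand: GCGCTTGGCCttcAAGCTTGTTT
Rps27l, chr9:66946296-66946315, plus strand: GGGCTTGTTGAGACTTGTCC
Gtse1, chr15:85859945-85859964, plus strand: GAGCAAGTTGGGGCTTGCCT

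Only the pair with the fewest mismatches is shown for each gene. The Cdkn1a pair shown held no mismatch and a spacer of 12 bases. Those of Rps27l and Gtse1 held 1 mismatch each, and those of Bax and Sesn1 2 each. In Cdkn1a the second half-site is directly followed by tgacatgttc, which matches with 1 mismatch. A pair without spacer thus lies there too and is not fully in capitals. Sites of other factors were searched in the same windows. The cyclic AMP response element, TGACGTCA, lay in the windows of 2 members, Btg2 and Plk2 (4.88% of the 41 windows, against 1.79% of all). The AP-1 site, TGANTCA, lay in those of Ak1, Fas and Mdm4 (7.32%, against 7.81% of all windows). The CArG box bound by serum response factor lay in none of the 41 windows, against 1.63% of all. A match is a run of letters and not a shown binding site, and no match covers only these windows. The whole windows of Plk2 and Btg2 are given because these genes changed most among the arrest genes in E11.5 XX against E11.5 XY EGC, with the response element in capitals, at positions -62 and -166 from the start, which is counted as 0. Those of Cdkn1a and Mdm2 are given for comparison, with exact p53 half-sites in capitals. Cdkn1a has another window, chr17:29093519-29093818, at a different start, which holds no exact half-site. Sesn1, Rps27l and Gtse1 each also have another window without one.

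Plk2, chr13:110394794-110395093, plus strand: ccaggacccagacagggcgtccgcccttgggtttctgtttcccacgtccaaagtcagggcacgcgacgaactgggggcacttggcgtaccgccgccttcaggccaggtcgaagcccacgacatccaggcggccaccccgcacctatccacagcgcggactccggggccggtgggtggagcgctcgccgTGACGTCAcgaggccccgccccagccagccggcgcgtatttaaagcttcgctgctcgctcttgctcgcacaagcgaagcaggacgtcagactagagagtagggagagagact
Btg2, chr1:134079106-134079405, minus strand: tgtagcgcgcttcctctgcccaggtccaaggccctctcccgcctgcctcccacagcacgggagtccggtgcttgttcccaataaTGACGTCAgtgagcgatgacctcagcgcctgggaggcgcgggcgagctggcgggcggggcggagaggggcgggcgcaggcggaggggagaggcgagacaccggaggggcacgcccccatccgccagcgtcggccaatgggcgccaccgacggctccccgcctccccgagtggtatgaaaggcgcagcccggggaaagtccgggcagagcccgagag
Cdkn1a, chr17:29090729-29091028, plus strand: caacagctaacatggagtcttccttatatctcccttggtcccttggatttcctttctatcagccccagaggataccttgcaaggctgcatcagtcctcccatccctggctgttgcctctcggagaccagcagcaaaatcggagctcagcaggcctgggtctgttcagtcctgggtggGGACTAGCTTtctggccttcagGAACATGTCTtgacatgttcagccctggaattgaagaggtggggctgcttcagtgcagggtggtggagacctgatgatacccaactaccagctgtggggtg
Mdm2, chr10:117710709-117711008, minus strand: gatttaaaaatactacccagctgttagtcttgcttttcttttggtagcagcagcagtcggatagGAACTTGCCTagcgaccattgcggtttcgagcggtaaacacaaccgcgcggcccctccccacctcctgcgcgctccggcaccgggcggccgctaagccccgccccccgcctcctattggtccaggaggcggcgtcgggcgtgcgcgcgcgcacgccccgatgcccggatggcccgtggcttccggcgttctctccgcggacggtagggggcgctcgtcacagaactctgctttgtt

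The windows of Plk2 and Btg2 hold no exact p53 half-site. In both, the response element is the one capitalised run, and in the Mdm2 window the single half-site begins at position -186.

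Trp53 itself, which encodes p53 (chromosome 11, 69580359 to 69591873, build GRCm38), was abundant and did not pass the test in any comparison. It had 177 and 171 TPM in E11.5 XX EGC, 237, 199.8 and 170.2 TPM in E12.5 XY EGC, and 184, 171 and 175 TPM in E11.5 XY EGC. It had 176, 167 and 177 TPM in XX ESC, and 189, 199 and 226 TPM in XY ESC. The XX and E11.5 XY EGC libraries overlapped, while each XX ESC library lay below each XY ESC library; the ESC difference of -0.23 ± 0.10 log2 units (SE) had an adjusted p of 0.0685 by limma. The highest level, 268 TPM, was in the XO library, which is 1 library and has no error. The level of the transcript gives no measure of p53 protein or of its activity.

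Dram1, an autophagy gene, stayed under 1 TPM in all 15 libraries (0.0938 to 0.356 TPM) and was not tested. The other 34 members were tested among the 13879 genes that reached 1 TPM in 2 or more libraries, by limma on log2(TPM + 1) with Benjamini-Hochberg adjustment over all genes and a threshold of 0.05. Fas passed that filter through XY EGC libraries alone, since only 4 libraries reached 1 TPM, all of them XY EGC. Its direction against those libraries was therefore fixed by the filter, so its values are a description. The main count of each comparison in which it was called is also given without it. Other counts, by role, by alternative setting or of flagged members, still include it. On this scale the changes of genes near 1 TPM are understated. Among the members, 32 averaged at least 10 TPM.

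**Figure D1:**
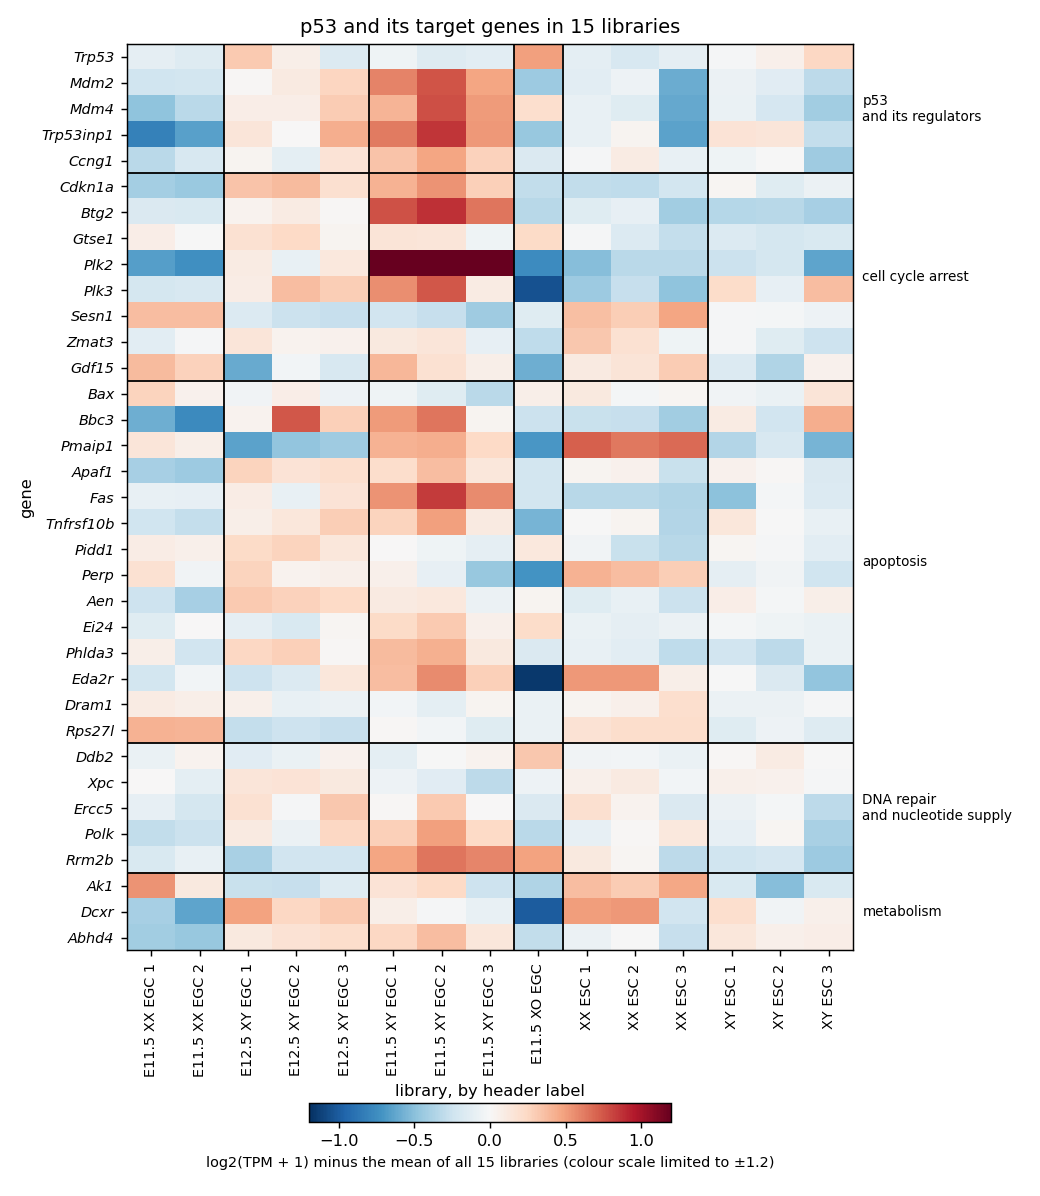
Each row is 1 of the 35 genes, grouped by role, and each column 1 of 15 libraries, grouped by header label; colour gives log2(TPM + 1) relative to the 15-library mean, limited to 1.2 units either way. Most rows of the regulators and Btg2, Plk2 and Fas are darkest red in the 3 E11.5 XY EGC libraries, whereas Sesn1 and Rps27l are red in XX EGC and XX ESC.

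The highest library of 18 of the 35 members was an E11.5 XY EGC library, against 6 members each for E12.5 XY EGC and XX ESC, 3 for E11.5 XX EGC, 2 for XO and none for XY ESC. In 7 members, Mdm2, Mdm4, Trp53inp1, Ccng1, Btg2, Plk2 and Fas, each E11.5 XY EGC library lay above each other library. The lowest library of 8 members was the XO library. These counts describe the levels and were not tested. The same counts were not made over all genes, so they cannot be read as a trait of the members. Fas, which passed the filter through XY EGC libraries alone, is in the counts of 18 and 7. The E11.5 XY EGC libraries enter 5 of the comparisons that follow, those with E11.5 XX EGC, E12.5 XY EGC and XY ESC, the interaction and EGC against ESC, so these are not independent of each other.

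XX and XY lines differ in X number and in the Y chromosome, and these and the line cannot be told apart here. In E11.5 EGC most members differed between XX and XY. Of 34 members, 21 were lower and 3 higher in XX than in XY EGC. Together these are 70.6% of the members, against 49.6% of all genes; 61.8% of the members fell, against 23.4% of all genes, and 8.82% rose, against 26.2%. Without Fas, 20 of 33 members (60.6%) fell. The median change of the members was -0.45 log2 units and that of all genes 0.02. Among genes averaging at least 10 TPM, 26.9% fell and 24.8% rose. The XO library, which has no error, had 104 TPM of Mdm2, 106 of Mdm4, 85.5 of Trp53inp1, 40.9 of Cdkn1a and 27.8 of Btg2. It had 20.5 TPM of Plk2, 22.8 of Bbc3, 87.2 of Pmaip1 and 223 of Bax. The part of X number in these levels was not tested.

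**Figure D2:**
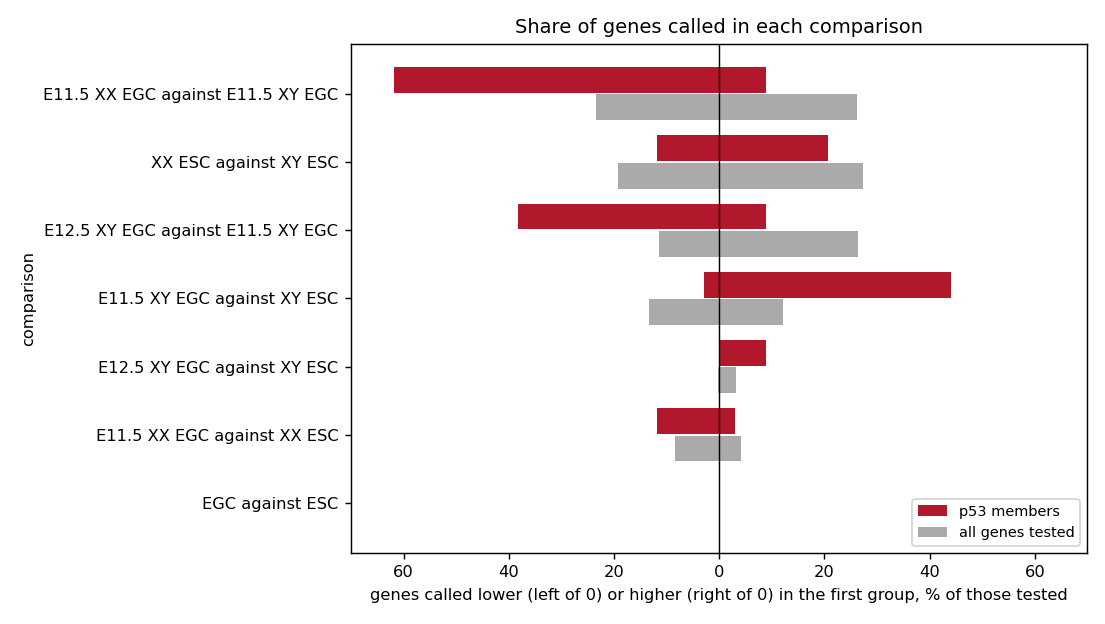
Bars give the percentage of tested genes that passed the threshold as higher (right of 0) or lower (left of 0) in the group named first, for the p53 members (red) and all genes tested (grey). In E11.5 XX against E11.5 XY EGC, 61.8% of members fell against 23.4% of all genes, while in XX against XY ESC 20.6% of members rose and 11.8% fell.

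The feedback regulators of p53 were lower in XX EGC, with 4 of the 5 genes of the regulator group falling and Trp53 not passing. Mdm2 had 119 and 121 TPM in E11.5 XX EGC, against 213, 238 and 195 TPM in E11.5 XY EGC. Mdm4 had 65.8 and 73.6 TPM in XX EGC, against 123, 158 and 132 TPM in XY EGC. Neither gene's XX and XY libraries overlapped, and the changes were -0.84 ± 0.14 for Mdm2 (adjusted p = 0.00032 by limma) and -0.97 ± 0.15 for Mdm4 (adjusted p = 0.000223). Trp53inp1, which encodes a nuclear protein that promotes p53-dependent apoptosis, had 66.5 and 74.6 TPM in XX EGC, against 181, 214 and 169.6 TPM in XY EGC. All XX libraries lay below all XY libraries, and the change was -1.40 ± 0.19 (adjusted p = 7.73e-05 by limma). Ccng1, cyclin G1, which is named here and below after its values were seen, fell by 0.62 ± 0.12 (adjusted p = 0.00091 by limma).

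Among the 8 arrest genes, Cdkn1a, Btg2, Plk2 and Plk3 fell in XX EGC and Sesn1 rose. Plk2, a polo-like kinase, showed the largest change of any member. It had 21.9 and 20.7 TPM in XX EGC, against 93.4, 115 and 82.1 TPM in XY EGC, with no overlap (-2.12 ± 0.14, adjusted p = 2.35e-07 by limma). Cdkn1a, which encodes the cyclin-dependent kinase inhibitor p21, had 37.7 and 36.8 TPM in XX EGC, against 67.8, 73.9 and 61.9 TPM in XY EGC. Btg2, an antiproliferative gene, had 31.2 and 30.9 TPM in XX EGC, against 60.9, 65.6 and 55.7 TPM in XY EGC. For both genes the XX libraries sat together far below the XY ones, with changes of -0.84 ± 0.08 for Cdkn1a (adjusted p = 5.26e-06 by limma) and -0.94 ± 0.09 for Btg2 (adjusted p = 4.82e-06). Cdkn1a overlaps exons of an opposite-strand gene, as do Plk3, Ei24, Ddb2 and Rrm2b, and the strand setting of the counting is not stated. Sesn1, sestrin 1, which lowers TOR signalling under stress, ran the other way, with 17.2 and 17.1 TPM in XX EGC, against 10.9, 10.6 and 9.46 TPM in XY EGC (0.68 ± 0.08, adjusted p = 2.56e-05 by limma).

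The apoptosis group was split. Of its 13 tested genes, 9 passed as lower, Fas among them, and 2, Bax and Rps27l, rose. Bbc3, which encodes the BH3-only protein PUMA, had 18 and 15.7 TPM in XX EGC, against 39.5, 43.4 and 28.1 TPM in XY EGC, with no overlap (-1.07 ± 0.22, adjusted p = 0.00142 by limma). Bax, the pore-forming effector of the mitochondrial pathway, had 255 and 221 TPM in XX EGC, against 205, 191 and 169 TPM in XY EGC. Its change of 0.33 ± 0.10 passed (adjusted p = 0.0115 by limma) but not without XX EGC library 1 (adjusted p = 0.147) or with quantile scaling (0.0979). Bax shares exon sequence with a same-strand predicted gene. Rps27l, a ribosomal protein gene whose product is a near copy of that of Rps27, so that reads could be split between them, had 1323 and 1313 TPM in XX EGC, against 1001, 972 and 895 TPM in XY EGC (0.46 ± 0.06, adjusted p = 4.12e-05 by limma). Pmaip1, which encodes the BH3-only protein NOXA, had 157 and 149 TPM in XX EGC, against 190.3, 193 and 168 TPM in XY EGC. Its change was small, at -0.26 ± 0.10 (adjusted p = 0.0443 by limma), and the call was lost on leaving out either XX library or XY library 1 or 2 (adjusted p 0.0934 to 0.199). Apart from Fas, the other genes that fell were Apaf1, the scaffold of the apoptosome, the receptors Tnfrsf10b and Eda2r, and Aen, Ei24 and Phlda3, with changes between -0.27 (Ei24) and -0.66 (Apaf1). The calls on Ei24, Phlda3 and Eda2r were each lost on leaving out some single libraries (adjusted p up to 0.165, 0.225 and 0.127). Fas had 0.750 and 0.745 TPM in XX EGC, against 1.72, 2.34 and 1.77 TPM in XY EGC.

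Of the repair genes, Polk, a translesion DNA polymerase, fell by 0.62 ± 0.13 and Rrm2b, the p53-inducible small subunit of ribonucleotide reductase, by 0.70 ± 0.12 (adjusted p = 0.00148 and 0.000388 by limma). The nucleotide excision repair genes Ddb2, Xpc and Ercc5 did not pass. Of the metabolic genes, Abhd4 fell by 0.69 ± 0.09 and Dcxr by 0.50 ± 0.18, a call lost in 5 of 11 alternative settings, without either XX EGC library among them (adjusted p = 0.052 and 0.206). Ak1 did not pass, with 71.3 and 52.7 TPM in XX EGC, against 54.6, 57.5 and 40.8 TPM in XY EGC.

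**Figure D3:**
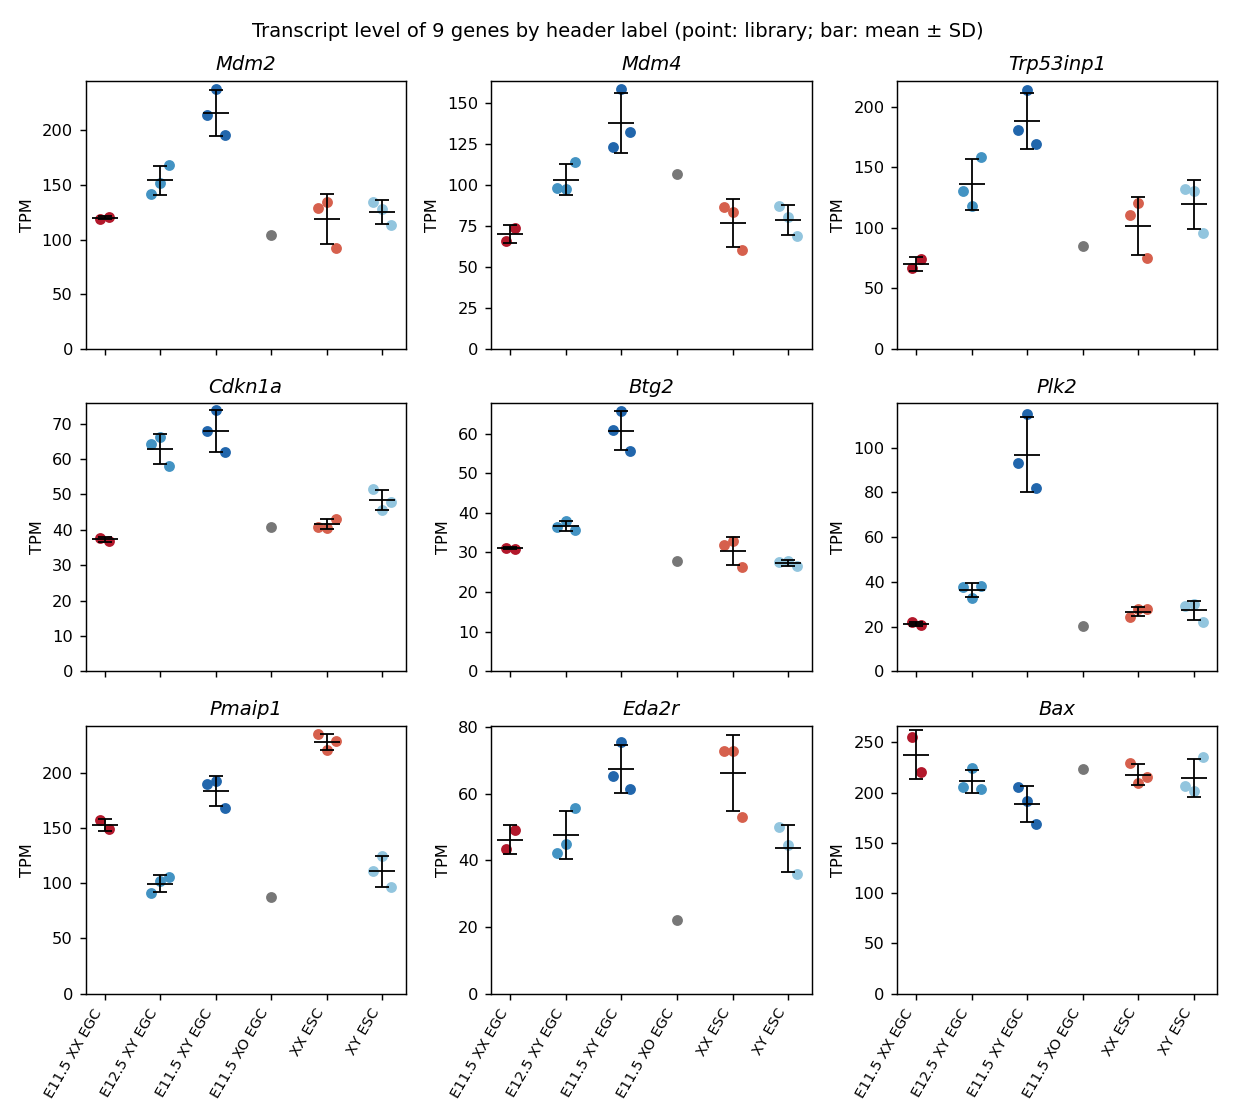
Points give the TPM of single libraries of 9 members, and bars the mean ± SD of each header label with more than 1 library; XO has 1 library. For Mdm2, Mdm4, Trp53inp1, Btg2 and Plk2 the 3 E11.5 XY EGC libraries lie above all others, whereas Pmaip1 is highest in the 3 XX ESC libraries, at 221 to 235 TPM.

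In ESC, where XX and XY lines were compared with no library in common with the EGC comparison, fewer members passed, in both directions. Of 34 members, 7 rose and 4 fell in XX ESC, 32.4% in all against 46.6% of all genes. The shares were 20.6% higher and 11.8% lower, against 27.3% and 19.3% of all genes, and the median of the members was 0.02 against 0.05. Without XX ESC library 3, 10 members rose and 2 fell, a setting in which 44.6% of all genes passed, 61.9% of them higher. None of the 5 regulators passed: Mdm2 had 129, 135 and 92.5 TPM in XX ESC, against 134, 128 and 113 TPM in XY ESC, and Mdm4 had 86.5, 83.6 and 60.1 TPM in XX ESC, against 87.1, 80.1 and 68.7 TPM in XY ESC. In both genes the groups overlapped and XX library 3 was the lowest.

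Pmaip1 was the member that changed most in ESC. It had 235, 221 and 229 TPM in XX ESC, against 111, 124 and 96.6 TPM in XY ESC, with no overlap (1.04 ± 0.09, adjusted p = 1.04e-06 by limma). Eda2r, a receptor of the tumour necrosis factor receptor family and the one member on the X chromosome, had 72.9, 72.8 and 53.2 TPM in XX ESC, against 50.1, 44.7 and 36.0 TPM in XY ESC (0.59 ± 0.15, adjusted p = 0.00538 by limma). The median of 588 X-linked genes was 0.97 in that comparison. In E11.5 EGC, where that median was 0.83, Eda2r ran the other way, with 43.3 and 49.3 TPM in XX, against 65.4, 75.4 and 61.6 TPM in XY (-0.53 ± 0.17, adjusted p = 0.0171 by limma, and 0.127 without XX EGC library 1). The XO library had 22.1 TPM, the lowest of all.

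Cdkn1a fell slightly in XX ESC, with 40.8, 40.6 and 43.1 TPM, against 51.4, 45.7 and 47.9 TPM in XY ESC (-0.21 ± 0.08, adjusted p = 0.0326 by limma). The groups did not overlap, but the call was lost without XX library 1 or 2 or XY library 1 or 3 (adjusted p 0.0628 to 0.13). The other genes that rose were Ak1, Perp, Sesn1, Rps27l and Zmat3, by 0.29 (Zmat3) to 0.68 (Ak1), and the other genes that fell were Plk3, Aen and Abhd4, with changes of -0.56 (Plk3) to -0.21 (Aen and Abhd4). Of 12 alternative settings, the call on Zmat3 was lost in 6, that on Aen in 5 and that on Abhd4 in 7. Most of these losses came on leaving out 1 library. Plk2 had 24.4, 27.8 and 27.8 TPM in XX ESC, against 29.3, 30.2 and 22.3 TPM in XY ESC, and Bbc3 had 22.7, 22.4 and 20.3 TPM in XX ESC, against 29.5, 23.2 and 37.5 TPM in XY ESC. Neither passed (adjusted p = 0.91 for Plk2 and 0.0962 for Bbc3 by limma). Bax had 229.6, 209 and 215 TPM in XX ESC, against 206, 201 and 236 TPM in XY ESC, which overlapped (adjusted p = 0.838).

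Whether the XX effect itself differed between EGC and ESC was tested as an interaction. It was more negative in EGC for 14 of 34 members (41.2%) and more positive for none, against 9.51% and 6.08% of all genes (15.6% in all). With median-ratio and quantile scaling, 14 were again more negative, and 1 and 2 were more positive. Of all genes, 17.1% and 16.1% passed in these settings, 45.8% and 49.7% of them more positive. Without Fas, 13 of 33 members (39.4%) were more negative. The largest differences were those of Plk2 (-2.10 ± 0.19, adjusted p = 5.8e-05 by limma), Pmaip1 (-1.30 ± 0.13, 0.000127), Trp53inp1 (-1.16 ± 0.26, 0.0129), Eda2r (-1.12 ± 0.22, 0.00769) and Btg2 (-1.08 ± 0.12, 0.00035). Mdm2, Mdm4 and Cdkn1a were also among the 14, Bax and Bbc3 were not (adjusted p = 0.118 and 0.145), and 6 members passed without E11.5 XX EGC library 1, a setting in which the share of all genes was 5.04%. The Mdm2 difference (-0.75 ± 0.19, adjusted p = 0.0208) was lost on leaving out any 1 of 5 libraries, both XX EGC libraries among them (0.0503 to 0.0772). The same direction in both cell types was called for 2 members that rose (Sesn1 and Rps27l) and 4 that fell (Cdkn1a, Plk3, Aen and Abhd4, of which all but Plk3 lost their ESC call without some single libraries), 5.88% and 11.8% of the members, against 16.4% and 12.2% of all genes. Opposite calls were made for Pmaip1 and Eda2r, 5.88% of the members, against 1.26% of all genes. The EGC calls on both genes were lost without E11.5 XY EGC library 2 (adjusted p = 0.122 and 0.0605 by limma).

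**Figure D4:**
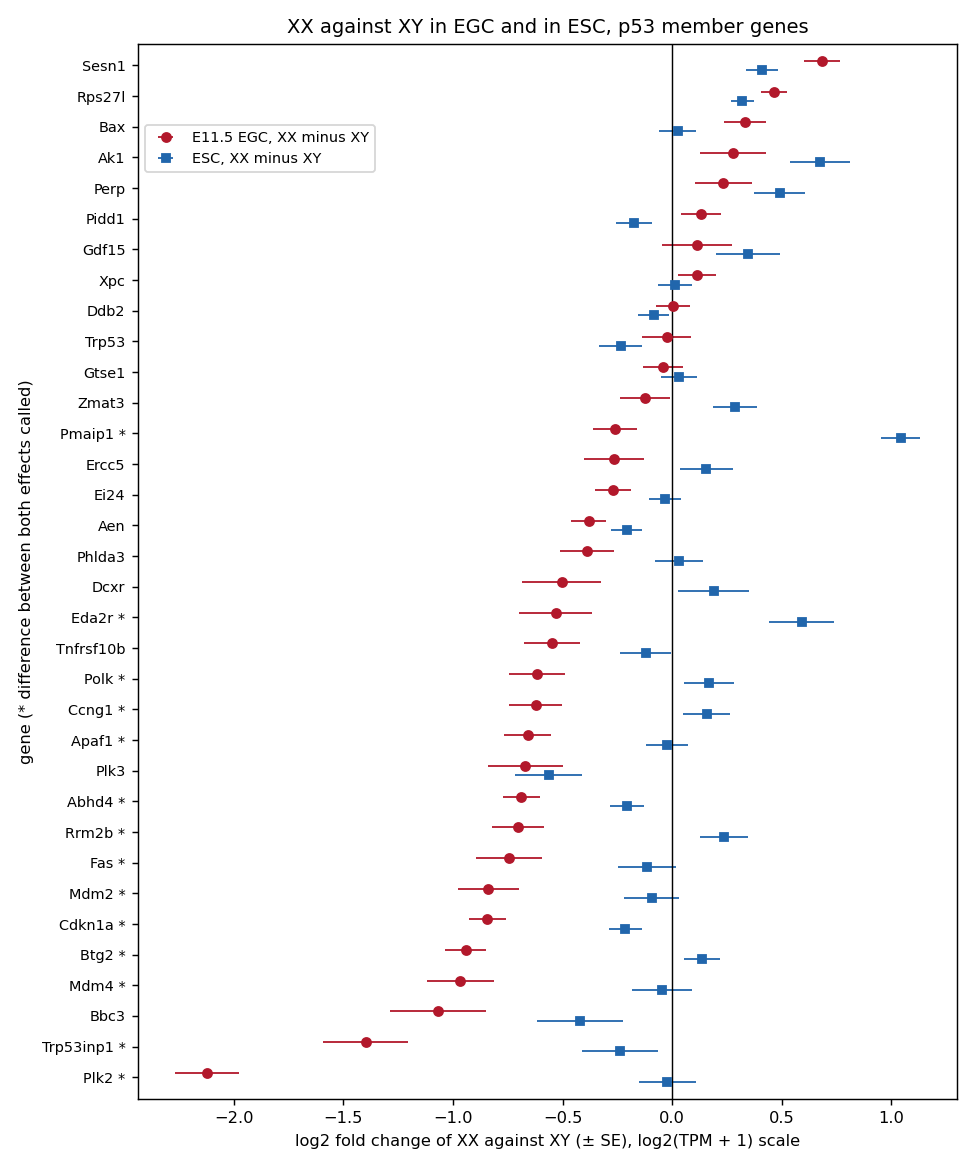
For the 34 tested members, circles give the log2 fold change of XX against XY in E11.5 EGC and squares that in ESC, each with its SE; an asterisk marks the 14 genes whose effects differed by the interaction test. Plk2 stands at -2.12 in EGC and -0.02 in ESC, and Pmaip1 at -0.26 and 1.04.

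Between the XY EGC stages, 13 members were lower and 3 higher at E12.5 than at E11.5, 47.1% in all against 37.7% of all genes. By direction, 38.2% of the members fell, against 11.4% of all genes, and 8.82% rose, against 26.3%; the medians were -0.12 and 0.10. Without Fas, 12 of 33 members (36.4%) fell. The split by direction depends on scaling: 16 fell and 1 rose with median-ratio scaling, and 14 fell and none rose with quantile scaling, and of all called genes 69.8% were higher in TPM, 47.5% with median-ratio and 49.6% with quantile scaling. The count was 9 without E12.5 XY EGC library 1 and 10 without library 2, where 27.9% and 30.1% of all genes passed.

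Plk2 again changed most, with 37.7, 32.9 and 38.3 TPM at E12.5, against 93.4 to 115 TPM at E11.5 (-1.38 ± 0.13, adjusted p = 2.33e-05 by limma). Pmaip1 had 90.9, 102 and 106 TPM at E12.5, against 168 to 193 TPM at E11.5 (-0.88 ± 0.09, adjusted p = 3.56e-05 by limma). Btg2 had 36.3, 38 and 35.6 TPM at E12.5, against 55.7 to 65.6 TPM at E11.5 (-0.71 ± 0.08, adjusted p = 8.85e-05 by limma). In these 3 genes no E12.5 library reached the lowest E11.5 library. Rrm2b fell by 0.85 ± 0.11, with 11.3, 12.8 and 12.8 TPM at E12.5, against 21.4, 24.3 and 23.3 TPM at E11.5.

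Mdm2 fell as well, with 142, 152 and 168 TPM at E12.5, against 195 to 238 TPM at E11.5 (-0.48 ± 0.13, adjusted p = 0.00958 by limma). Mdm4 had 97.8, 97.5 and 114 TPM at E12.5 and Trp53inp1 131, 118 and 159 TPM. Their falls of 0.41 ± 0.14 and 0.47 ± 0.17 (adjusted p = 0.0318 and 0.0475 by limma) were each lost on leaving out some single libraries, E12.5 library 1 among them (0.0965 and 0.118). Eda2r had 42.2, 44.9 and 55.7 TPM at E12.5 and fell by 0.50 ± 0.15 (adjusted p = 0.0185 by limma), a call lost without E12.5 library 1 or 2 or E11.5 library 2 (0.0764, 0.0586 and 0.0724). Cdkn1a did not pass, with 64.2, 66.1 and 57.9 TPM at E12.5, which overlapped the 61.9 to 73.9 TPM of E11.5, and neither did Bbc3, with 28.3, 46.5 and 33.7 TPM, or Bax, with 206, 224 and 204 TPM. The 3 members that rose were Xpc, the damage sensor of nucleotide excision repair (0.31 ± 0.08), Pidd1 (0.27 ± 0.08) and Aen, a p53-induced nuclease (0.22 ± 0.07), and none of these 3 calls held with quantile scaling (adjusted p = 0.0545, 0.104 and 0.088 by limma).

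Against XY ESC, the E11.5 XY EGC had 15 members higher and 1, Sesn1, lower, 47.1% in all against 25.6% of all genes. By direction, 44.1% rose, against 12.2% of all genes, and 2.94% fell, against 13.4%; the medians were 0.29 and -0.01. Without Fas, 14 of 33 members (42.4%) rose. Mitochondrial transcripts took 6.70%, 6.94% and 7.85% of the TPM in E11.5 XY EGC, against 4.94% to 5.49% in XY ESC, with no overlap; their part in these differences was not tested. The 15 held 4 of the 5 regulators, 4 arrest genes, 5 apoptosis genes and 2 repair genes. Plk2 rose by 1.79 ± 0.13 (82.1 to 115 TPM in EGC, against 22.3 to 30.2 TPM in XY ESC, adjusted p = 1.92e-06 by limma) and Btg2 by 1.12 ± 0.08 (55.7 to 65.6 TPM, against 26.6 to 27.8 TPM, 2.4e-06). Mdm2 rose by 0.78 ± 0.13, Mdm4 by 0.80 ± 0.14, Pmaip1 by 0.73 ± 0.09, Trp53inp1 by 0.66 ± 0.17, Eda2r by 0.63 ± 0.15 and Cdkn1a by 0.48 ± 0.08, with adjusted p from 0.000153 (Pmaip1) to 0.0154 (Trp53inp1) by limma. The call on Trp53inp1 was lost without E11.5 XY EGC library 2 or XY ESC library 3 (adjusted p = 0.063 and 0.07). Fas had 1.72, 2.34 and 1.77 TPM in the germ cell lines and 0.323, 0.834 and 0.668 TPM in XY ESC. Bax and Bbc3 did not pass (adjusted p = 0.129 and 0.296).

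Few members differed between E12.5 XY EGC and XY ESC. By limma, 15 members had an unadjusted p under 0.05, a count not made for all genes. After adjustment 3 members rose and none fell, 8.82% in all, against 3.36% of all genes (3.19% higher and 0.166% lower). These were Cdkn1a (57.9 to 66.1 TPM in EGC, against 45.7 to 51.4 TPM in XY ESC, 0.37 ± 0.08), Btg2 (35.6 to 38 TPM, against 26.6 to 27.8 TPM, 0.41 ± 0.08) and Gtse1, a regulator of p53 in G2 (0.34 ± 0.08), with adjusted p of 0.025, 0.025 and 0.0399 by limma. The levels of all 3 genes did not overlap, yet none of the calls held with median-ratio or quantile scaling, or without E12.5 XY EGC library 1 or 2 or any 1 XY ESC library. Of all genes, 0.210% to 0.477% passed in those 5 settings that left out a library.

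E11.5 XX EGC and XX ESC differed in 5 members: Rps27l rose, and Pmaip1, Apaf1, Dcxr and Abhd4 fell. The shares were 2.94% higher and 11.8% lower, against 4.09% and 8.44% of all genes. Pmaip1 had 157 and 149 TPM in XX EGC, against 221 to 235 TPM in XX ESC (-0.57 ± 0.10, adjusted p = 0.00504 by limma). Mdm2, at 119 and 121 TPM in XX EGC, fell within the 92.5 to 135 TPM of XX ESC, and Cdkn1a, at 37.7 and 36.8 TPM, lay just below the 40.6 to 43.1 TPM of XX ESC (adjusted p = 0.906 and 0.251). The count of 5 was 1 without XX EGC library 1, 0 without XX EGC library 2, 2 without XX ESC library 1, 1 without XX ESC library 2 and 7 without XX ESC library 3, settings in which 2.64%, 2.55%, 6.20%, 7.58% and 16.8% of all genes passed.

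With all 9 EGC libraries set against the 6 ESC libraries, the one contrast that the sample labels themselves name, no member passed. The fit held 12909 genes and 33 members, and 0.0465% of all genes passed (0.0232% higher and 0.0232% lower). By limma, 6 members had an unadjusted p under 0.05, and 0 did with the estimated correlation of 0.75 between libraries of 1 label. Such counts were not made for all genes. Mdm2 ran from 104 to 238 TPM in EGC, with a median of 152, against 92.5 to 135 TPM in ESC, with a median of 128. The log2 difference was 0.28 ± 0.15 for Cdkn1a and 0.63 ± 0.36 for Plk2 (adjusted p = 0.587 and 0.602).

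Other genes of the pathway, listed by role, moved in both directions in XX against XY EGC, where 26.2% of all genes rose and 23.4% fell. Of 16 other p53 targets tested, 6 rose and 5 fell in XX EGC (37.5% and 31.2%), with Steap3 (1.19 ± 0.13), Gadd45a (0.57 ± 0.11) and Ephx1 (0.51 ± 0.12) among those that rose (adjusted p from 1.3e-05 to 0.0041 by limma). Gadd45a, a growth arrest and damage gene, averaged 129 TPM in XX EGC, against 86.4 TPM in XY EGC. Among 20 kinases, modifiers and relatives of p53, 3 rose and 5 fell (15% and 25%); Trp73, a p53 relative, averaged 2.32 TPM in XX EGC, against 6.88 TPM in XY EGC (-1.22 ± 0.21, adjusted p = 0.00037). Of 15 cell cycle genes known to be repressed through p53 and p21, 5 rose and 3 fell (33.3% and 20%), and Cdk1, the mitotic kinase, averaged 605 TPM in XX EGC, against 365 TPM in XY EGC (0.73 ± 0.07, adjusted p = 5.9e-06). Of 13 CDK inhibitors, cyclins and RB family genes, 4 rose and 2 fell (30.8% and 15.4%), and the CDK inhibitor Cdkn1b averaged 28.4 TPM in XX EGC, against 68.0 TPM in XY EGC (-1.23 ± 0.11, adjusted p = 2.2e-06). Of 16 other BCL2 family and caspase genes 5 rose and 6 fell (31.2% and 37.5%), and of 12 other excision repair and ribonucleotide reductase genes 4 rose (33.3%) and none fell. Steap3 and Cdk1 had the highest change of their lists, and Trp73 and Cdkn1b the lowest of theirs. The median change was 0.19 for the other p53 targets and -0.10 for the kinases, modifiers and relatives. It was -0.02 for the repressed cell cycle genes and 0.10 for the CDK inhibitor list, against 0.02 for all genes.

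In XX against XY ESC, 6 of the 16 other p53 targets rose and 4 fell (37.5% and 25%, against 27.3% and 19.3% of all genes), with Ephx1 (1.14 ± 0.11), Steap3 (0.84 ± 0.12) and Gadd45a (0.51 ± 0.10) among the 4 with the smallest adjusted p (3.2e-06, 8.1e-05 and 0.00081 by limma). Gadd45a averaged 108 TPM in XX ESC, against 75.2 TPM in XY ESC. In E11.5 XY EGC against XY ESC, 4 rose and 4 fell (25% each, against 12.2% and 13.4% of all genes). The leading genes there were Lif, the cytokine gene (1.08 ± 0.15), and Sesn2 (0.55 ± 0.09), which rose, and Pml (-0.55 ± 0.07) and Sfn (-1.01 ± 0.19), which fell.

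Plk2, Plk3 and Btg2 are known to be induced by serum and growth factors as well as by p53, so the immediate-early genes, the first transcripts that growth factor signalling induces, were set beside them. Their summed level over 19 genes was 279 to 318 TPM in E11.5 XX EGC, 570.2 to 674 TPM in E12.5 XY EGC and 1475 to 1607 TPM in E11.5 XY EGC. It was 247 TPM in XO, 381 to 401 TPM in XX ESC and 410 to 468 TPM in XY ESC. The E11.5 XY EGC libraries thus stood above all others, as they did for Mdm2 and Plk2. Of 18 tested, 16 (88.9%) fell and none rose in XX against XY EGC, where 23.4% of all genes fell. At E12.5 against E11.5, 11 (61.1%) fell, against 11.4% of all genes, and in E11.5 XY EGC against XY ESC 15 (83.3%) rose, against 12.2%. Fos averaged 24.3 TPM in XX EGC, against 626 TPM in E11.5 XY EGC (-4.66 ± 0.17), and Egr1 2.94 TPM in XX EGC, against 142 TPM (-5.18 ± 0.16). What raised the immediate-early genes, and its part in the levels of the p53 members, was not tested.

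Fibroblast markers also moved with some comparisons. Of 11 tested, 8 rose (72.7%, against 12.2% of all genes) and 1 fell in E11.5 XY EGC against XY ESC, and 5 rose (45.5%, against 4.09%) in XX EGC against XX ESC. At E12.5 against E11.5, 1 rose and 5 fell (45.5%, against 11.4% of all genes lower). In XX against XY EGC, 1 rose and 1 fell (9.09% each, against 26.2% and 23.4%). With E11.5 XY EGC library 1, which had the highest fibroblast sum, left out, 22 members passed in XX against XY EGC (4 higher, 18 lower). In E11.5 XY EGC against XY ESC, 14 passed without it (13 higher, 1 lower). Of all genes, 45.6% and 19.45% passed in these settings.

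**Figure D5:**
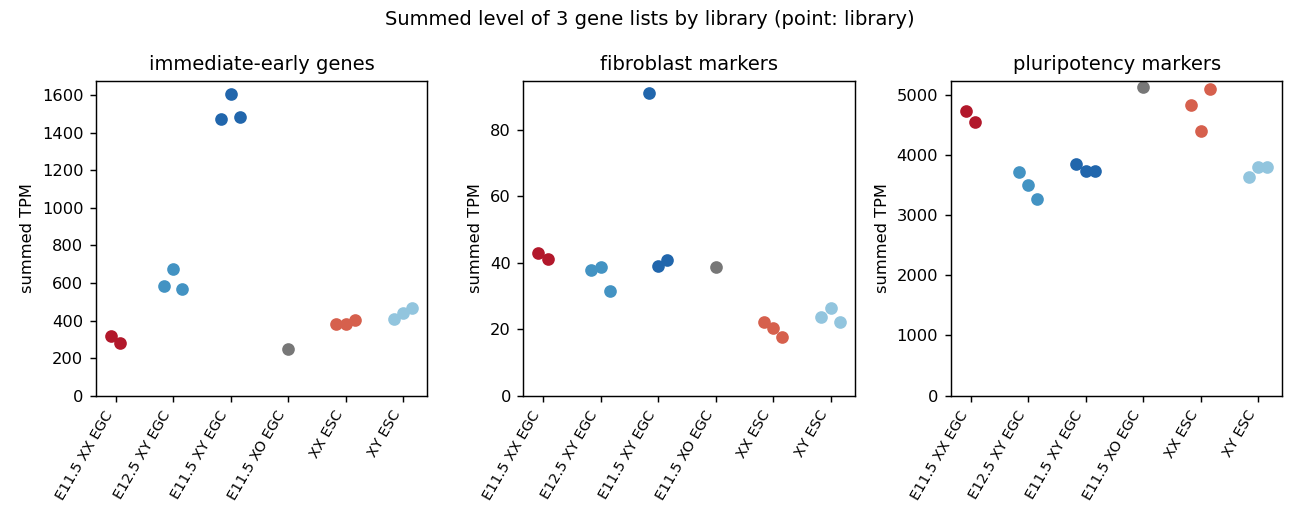
Points give the summed TPM of the immediate-early genes, fibroblast markers and pluripotency markers in each library, by header label. The immediate-early sums of the 3 E11.5 XY EGC libraries, 1475 to 1607 TPM, lie above all others, and the fibroblast sum of E11.5 XY EGC library 1 is 91.0 TPM.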

How the data were processed

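Polyadenylated RNA of 15 libraries was sequenced as paired ends, per the labels' protocols. The submitters' processing notes name STAR 2.3.0, HTSeq 0.6.0, edgeR 3.8.6, Picard 1.100, SAMtools 0.1.18.0 and the build GRCm38 (mm10), without roles; the strand setting is not given in the sources used here. The authors deposited TPM values per gene without counts, which leaves read depth unknown, and no counting interval or detection floor was computed.

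Groups came from the header of the table, in which empty cells take the label to their left; library numbers are only names. The log2(TPM + 1) values were fitted with limma 3.58.1 in R 4.3.3 (moderated 2-sided test with a mean-variance trend, 1 mean per label, 9 residual degrees of freedom). The fit of EGC against ESC instead had 1 mean per group and more residual degrees of freedom. Errors on log2 fold changes are SE. Adjusted p-values cover all 13879 genes, or 12909 for EGC against ESC (at least 1 TPM in at least 6 libraries). The fit was tested on simulated data. Members past the threshold by at least 1 log2 unit in any contrast have their values given by library or as ranges. So do Trp53, Mdm2, Mdm4, Cdkn1a and Bax. Not given are Trp53inp1 in ESC and Btg2 in XX ESC. From other lists up to 4 genes with the smallest adjusted p were eligible. Members named beyond these were chosen after their values were seen. Not every gene eligible by this rule is named. A list of ATF4 stress response genes was also tested and is not described here. The members and lists were chosen with earlier results of these data known. Alternatives were another pseudocount (0.1), other filters, median-ratio and quantile scaling, only the libraries compared, and leaving out each library. Positions came from GENCODE M21 and figures from matplotlib 3.10.9 in Python 3.11.15.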

Additional observations from a re-analysis of the deposited data

Results flagged for a closer look

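The XX effect differed between E11.5 EGC and ESC for 14 members by the interaction test of limma, always more negative in EGC. The differences, in log2 units, were -2.10 for Plk2, -1.30 for Pmaip1, -1.16 for Trp53inp1, -1.12 for Eda2r and -1.08 for Btg2. They were -0.94 for Rrm2b, -0.92 for Mdm4, -0.79 for Polk, -0.78 for Ccng1 and -0.75 for Mdm2. They were -0.64 for Apaf1, -0.63 for Fas, -0.63 for Cdkn1a and -0.48 for Abhd4. Fas passed the filter on low values only through XY EGC libraries, where it was highest, so its value is a description, and its call was lost in 13 of 16 alternative settings. Polk and Plk2 lie on chromosome 13, where XX ESC library 3 stood apart; both calls held without that library.

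Ddb2, the damage-recognition gene of nucleotide excision repair, had 32.6 TPM in the XO library, far from the other EGC libraries (23.5 to 26.9 TPM). It was the 1 such gap in 70 gene and group combinations, and chance gives about 1 in 20. Ddb2 overlaps exons of an opposite-strand gene.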

How the results depend on the processing

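No paired analysis was possible because the labels carry no replicate numbers that groups share. Of 89 calls on members, 51 held under all alternatives, 38 were lost under at least 1, and none reversed. The count for E12.5 XY EGC against XY ESC was 0 with median-ratio scaling, 0 with quantile scaling and 1 with only the libraries compared. Of all genes, 1.48%, 0.821% and 1.70% passed in these settings. The count for E11.5 XX EGC against XX ESC was 3 with quantile scaling and 1 with only the libraries compared. There, 13.1% and 4.65% of all genes passed. Leaving out 1 library at a time gave 19 to 24 calls for E11.5 XX against E11.5 XY EGC, 8 to 12 for XX against XY ESC, 9 to 17 for E12.5 against E11.5 XY EGC, 13 to 18 for E11.5 XY EGC against XY ESC, 0 to 4 for E12.5 XY EGC against XY ESC, 0 to 7 for E11.5 XX EGC against XX ESC, 6 to 16 for the interaction and 0 throughout for EGC against ESC. Leaving out 1 XX EGC library leaves a lone library, assumed to vary like the other labels. EGC against ESC also gave 0 with the number of X chromosomes as a factor, with a correlation within labels (0.75) and with mean fibroblast marker level in the model. The cause of the lost calls was not tested. Without counts, the precision of low genes such as Fas is unknown.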
